A study of Vitis vinifera with 16 samples.

Results

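The transcripts described here are the most abundant of the ripening grape berry in RNA-seq data of 'Muscat Blanc à Petits Grains', chosen by level alone. RPKM, a read count scaled for the length of the transcript and for the mapped reads of the library, was averaged over the libraries of a sample, and transcripts with a mean of 1000 RPKM or more over the 16 samples were kept. This gave 60 of 23984 transcripts (0.25%), of which 59 were mRNA records (XM) and 1, XR_139849.1, was a non-coding RNA record. The levels chose the members, so levels and shares are given below as a description, with no test. XM_003632893.1 (1027 RPKM), XM_002263385.1 (1003 RPKM) and XM_002279343.2 (1001 RPKM) lay just inside the limit, and XM_002278588.2 (994 RPKM), XM_002274833.2 (947 RPKM) and XM_002262631.1 (940 RPKM) just outside it. No product name was used here for any of the 60, which are therefore called by their RefSeq records, and no function is given. A gene symbol was matched for 22 of them, all of the LOC form, which carries no function either.

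Berries came from 1 vineyard in Changli (CL, Hebei) and 1 in Gaotai (GT, Gansu), at 4 stages of the Eichhorn-Lorenz (E-L) scale and in the vintages 2010 and 2011. E-L31 is the pea-sized green berry, E-L35 the berry that begins to colour and enlarge, E-L36 the berry of intermediate sugar and E-L38 the berry at harvest. All groups shared the cultivar, a white grape grown from cuttings on vertically positioned shoots, and all RNA came from berries without their seeds; the GT vines had been planted earlier than the CL vines. A sample is a stage, region and vintage, 16 in all with 24 libraries, 1 for each sample of E-L31 and E-L36 and 2 for each of E-L35 and E-L38. Each region was thus represented by 1 vineyard and the same vines in both years. The authors divided each vineyard into 2 parts for sampling and collected 2 biological repeats. They report 1 library for each sample of E-L31 and E-L36 because good RNA was scarce. Nothing in the labels says which part or repeat a library stands for. The 2 vintages of a group therefore serve as its replicates, and p-values measure the spread between them. With 1 vineyard in each region, region cannot be told apart from vineyard or vine age.

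A grape berry grows hard, green and acid until véraison, when it softens, takes up sugar and starts to ripen. Reads are shared out among all transcripts of a library, so when few transcripts take more of them, the RPKM of every other transcript is lowered by construction. For this reason the shares below are relative amounts, and the tests of single transcripts use counts scaled by TMM, which is centred on the bulk of the transcripts.

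Depth ran from 3798921 counts (GT 2010 at E-L31) to 26627006 counts (CL 2010 at E-L35), and 78.6 to 86.2% of the counts of a sample came from uniquely mapped reads. All 60 members passed the filter of at least 10 counts in at least 2 samples, which left 19026 transcripts for testing, and the lowest count of any member in any sample was 20. At E-L31, 2 samples stood apart from the others. GT 2011 held 18 members at 4-fold or more above the highest of the 3 other samples of E-L31 (30.0% of the members, against 1.66% of all transcripts tested), 15 of them at 10-fold or more. For 40 of the 60 members its level lay within the range of the 4 samples of E-L35, as against 8 to 13 members in the other samples of E-L31. This last count was made for the members only, so whether it is particular to them cannot be told. CL 2011 held 22 transcripts, none of them a member, at 100-fold or more above the highest of 14 samples (all but the 2 of 2011 at E-L31) and at 100 RPKM or more, a limit chosen after their values were seen. They made up 6.25% of the summed RPKM of CL 2011 and 0.595% of GT 2011, where they were lower by a median of 8.73-fold, and at most 0.00461% elsewhere. What sets these samples apart was not tested, and the main results that rest on them are given with and without them.

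The mean RPKM of the members ran from 1001 to 32810, with a median of 2384, as against 4.5 over all transcripts. At the top, 7 members had means of 10000 RPKM or more and 17 had 5000 or more, while 23 lay between 1000 and 1500. Many members were not this abundant at every stage. Only 25 members reached 1000 RPKM as a mean at each of the 4 stages, and 20 were below 1000 RPKM at E-L31. Both counts rest in part on GT 2011 at E-L31. Without it, XM_002284998.2 (335 RPKM), XM_002285267.2 (228), XM_002282874.1 (88.6), XM_002285001.1 (312) and XM_002267048.1 (649) of the 25 were under 1000 RPKM there. So were XM_002274317.1 (669), XM_002264684.2 (95.4), XM_003634703.1 (695) and XM_002265608.2 (616), and more than 20 members were then below 1000 RPKM at E-L31. The stage of the highest mean was E-L31 for 11 members, E-L35 for 14, E-L36 for 17 and E-L38 for 18. In all 16 samples, 10 members were at 1000 RPKM or more.

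**Figure D1:**
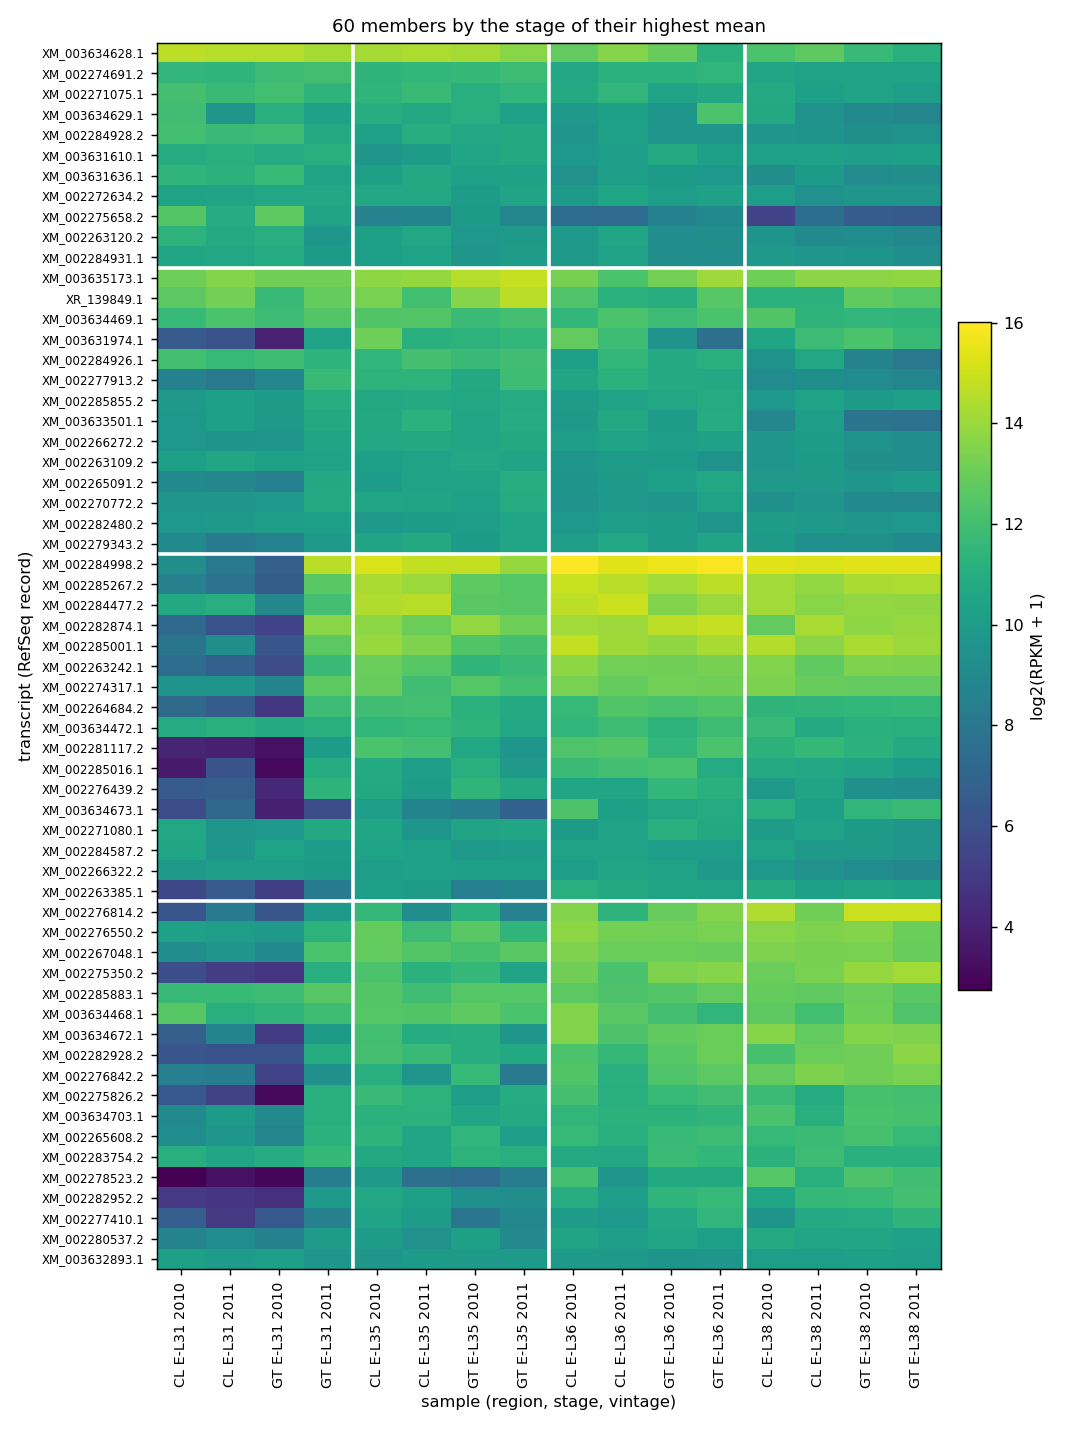
Levels of the 60 members (rows) in the 16 samples (columns), as log2(RPKM + 1), with white lines between stages and between members grouped by the stage of their highest mean. Many members with their highest mean at E-L36 or E-L38 are dark in 3 samples of E-L31 and brighter in GT 2011.

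The members took a share of the summed RPKM whose mean over the samples of a stage rose until E-L36. At E-L31 it was 16% (CL 2010), 14.5% (CL 2011), 14.1% (GT 2010) and 26.3% (GT 2011). In the same order it was 38.1, 32.4, 30.0 and 27.9% (E-L35), 47.6, 38.7, 38.5 and 44.6% (E-L36) and 39.8, 36.3, 43.0 and 42.1% (E-L38). The means were 17.7% ± 5.79 (SD, n = 4), 32.1% ± 4.38, 42.3% ± 4.51 and 40.3% ± 2.96, and 14.9% ± 1.03 (n = 3) at E-L31 without GT 2011. Every sample of E-L35, E-L36 and E-L38 lay above every sample of E-L31, whereas E-L36 and E-L38 overlapped. The share of counts, in which long transcripts weigh more, followed the same course at a lower level, with 12.3% ± 4.65, 23.2% ± 4.84, 34.1% ± 4.31 and 31.8% ± 2.36. Without GT 2011 the share of counts at E-L31 was 9.98% ± 0.584 (n = 3). Between the 2 libraries of a sample the share of RPKM differed by 0.096 to 3.48 percentage points over 8 pairs (median 0.711), as against 14.3 points between the means of E-L31 and E-L35 and 10.3 between those of E-L35 and E-L36. In bulk RNA, more cells with a transcript and more of it per cell cannot be told apart.

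The 10 most abundant transcripts of each sample held 10.2, 12, 9.05 and 13.9% of its summed RPKM at E-L31 and 28.9, 23.6, 21.9 and 26.9% at E-L36, in the order CL 2010, CL 2011, GT 2010 and GT 2011, which is kept in all lists of 4 values below. The means of this top-10 share were 11.3% ± 2.14, 18.5% ± 2.43, 25.3% ± 3.14 and 23.6% ± 2.33 from E-L31 to E-L38 (n = 4 each). The share thus grew by 14.0 points between E-L31 and E-L36, or by 14.9 points without GT 2011 at E-L31. Growth was seen in each region and vintage, by 18.7 and 11.6 points in CL and by 12.9 points in both GT vintages. In the same span the number of transcripts needed for 50% of the summed RPKM fell from between 512 and 839 to between 78 and 206. In CL 2011 at E-L31, 6 of the 10 were transcripts of the set that set this sample apart, led by XM_003634658.1 with 9841 RPKM as against 5.15 RPKM at most in the 14 samples named above. Without that set the mean share of E-L31 was 10.8% and the growth 14.5 points, and all 10 transcripts of CL 2011 were members.

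**Figure D2:**
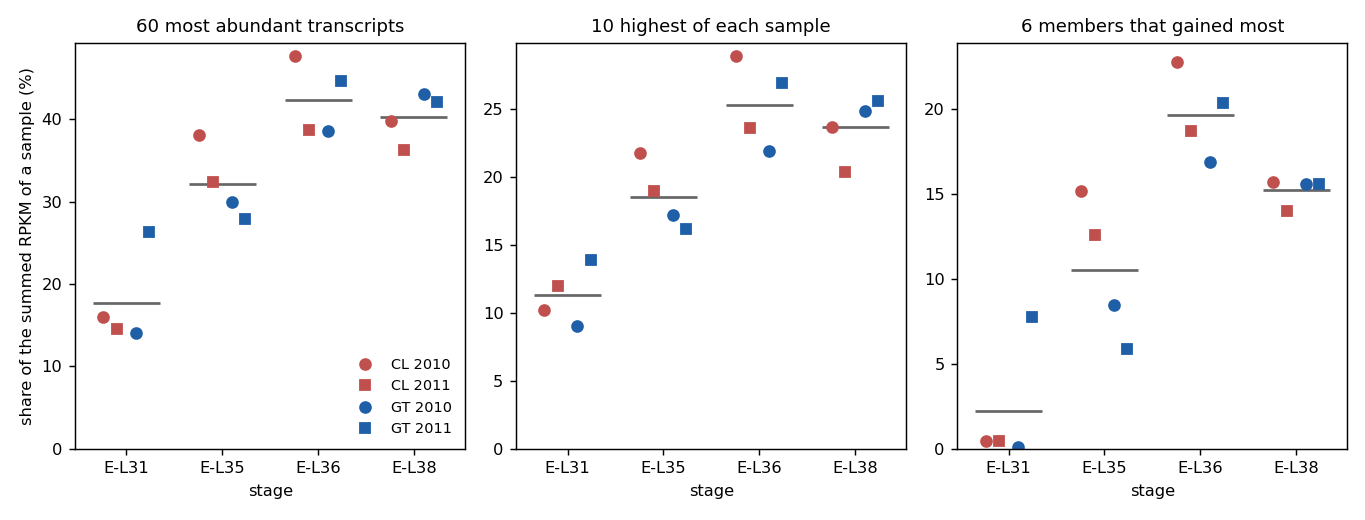
Share of the summed RPKM of each sample (%, y axis) by stage for the 60 members, for the 10 highest transcripts of each sample, and for the 6 members whose share grew most from E-L31 to E-L36, which were picked by that growth; points are samples and lines the means of 4. All 3 shares are lowest at E-L31, where GT 2011 (26.3, 13.9 and 7.77%) lies above the other samples of its stage.

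Most of the transcripts that made up the top 10 changed between these stages. By stage means, the 10 highest at E-L31 and at E-L36 had 2 transcripts in common, XM_002284998.2 and XM_003635173.1, and the 4 stages together had 21 transcripts among their 10 highest, all of them members. XM_002284998.2 stood among the 10 of E-L31 through GT 2011 alone, as its mean over the 3 other samples was 335 RPKM. Within each region and vintage, the top 10 of E-L31 and of E-L36 shared 1, 1, 1 and 5 transcripts. The 10 of E-L36 held 4.08% of the summed RPKM at E-L31 (1.95% without GT 2011) and 24.7% at E-L36. The 10 of E-L31 held 9.48% at E-L31 and 12.4% at E-L36. XM_002284998.2, listed there through GT 2011, carried this increase, with 0.869% at E-L31 and 6.99% at E-L36. From E-L31 to E-L36, 41 members gained 29.6 points and 19 moved by -5.01 points, a net gain of 24.6 points, and 15 members gained and 2 lost at least 0.5 points. The other transcripts lost the same 24.6 points in small parts, with 18461 losing and 3895 gaining and none moving by 0.5 points.

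A group of 6 members made 17.5 of the 29.6 points gained (59.1%), and the first of them, XM_002284998.2, made 20.7% of the gain alone. Together these 6 held 0.462, 0.468, 0.118 and 7.77% of the summed RPKM at E-L31, then 15.2, 12.6, 8.5 and 5.91% (E-L35), 22.8, 18.7, 16.9 and 20.4% (E-L36) and 15.7, 14.0, 15.6 and 15.6% (E-L38). The 3 samples of E-L31 other than GT 2011 were all under 0.5%, and GT 2011 lay between the GT samples of E-L35. The other 54 members held 15.5% ± 2.15 at E-L31 (14.5% ± 0.905 without GT 2011), then 21.5% ± 1.27 (E-L35), 22.7% ± 2.27 (E-L36) and 25.1% ± 2.3 (E-L38). Because the 6 were picked by their gain between E-L31 and E-L36, their log2 ratios for that step are given with the SE and without a test.

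XM_002284998.2, 1018 nt long, was the most abundant transcript of 12 of the 16 samples. Its RPKM was 619, 273, 113 and 24994 at E-L31 and 39025, 28540, 28021 and 15643 at E-L35. It then reached 65874, 43157, 51606 and 60028 at E-L36 and stood at 43988, 38660, 42611 and 41801 at E-L38. All samples of E-L36 lay above all of E-L35, and GT 2011 at E-L31 was 40.4-fold above the next sample of its stage. The log2 ratio of E-L36 over E-L31 was 5.08 ± 1.15 (SE), and 8.57 without GT 2011. Only 1.82% of its reads were unique to it, a point taken up with the other transcripts of few unique reads.

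XM_002285267.2 (969 nt, all reads unique) had 362, 224, 98.9 and 6357 RPKM at E-L31, then 20190, 16817, 6792 and 5809 (E-L35), 29940, 24956, 18542 and 26401 (E-L36) and 18334, 15031, 20153 and 21219 (E-L38). At E-L35 both CL samples were above both GT samples, whereas the regions overlapped at E-L36. The log2 ratio of E-L36 over E-L31 was 5.20 ± 0.96, and 7.81 without GT 2011. XM_002284477.2 (1043 nt) had 1768, 2145, 467 and 4289 RPKM at E-L31, then 22212, 24190, 6167 and 6029 (E-L35), 26459, 31752, 11738 and 16611 (E-L36) and 18648, 12688, 14791 and 14377 (E-L38). At E-L35 and E-L36 CL was higher in both vintages, and the regions overlapped at E-L38. For E-L36 over E-L31 the log2 ratio was 3.75 ± 0.61, and 5.01 without GT 2011.

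XM_002282874.1 (1027 nt) had 157, 67.6, 41.3 and 12795 RPKM at E-L31 and 13980, 8214, 14897 and 8607 at E-L35. Its values were 18117, 16879, 26348 and 29850 at E-L36 and 7322, 20476, 13911 and 15964 at E-L38. GT 2011 at E-L31 was 81.5-fold above the next sample of the stage, the widest such gap among the members, and at E-L36 both GT samples lay above both CL samples. The log2 ratio of E-L36 over E-L31 was 5.23 ± 1.20, and 8.97 without GT 2011. XM_002285001.1 (1703 nt) had 236, 623, 78.4 and 6512 RPKM at E-L31, then 15906, 11042, 5492 and 4327 (E-L35), 28212, 17757, 14233 and 20128 (E-L36) and 23200, 13523, 20192 and 16533 (E-L38). CL was above GT in both vintages at E-L35 only. XM_002263242.1 (978 nt) had 172, 111, 54.6 and 3241 RPKM at E-L31, then 8097, 5951, 2794 and 3461 (E-L35), 13612, 9443, 8905 and 10136 (E-L36) and 11757, 7113, 11123 and 10830 (E-L38), with the same order of the regions at E-L35. The log2 ratios of E-L36 over E-L31 of these last members were 4.58 ± 1.02 and 4.97 ± 0.94, and 7.38 and 7.52 without GT 2011.

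**Figure D3:**
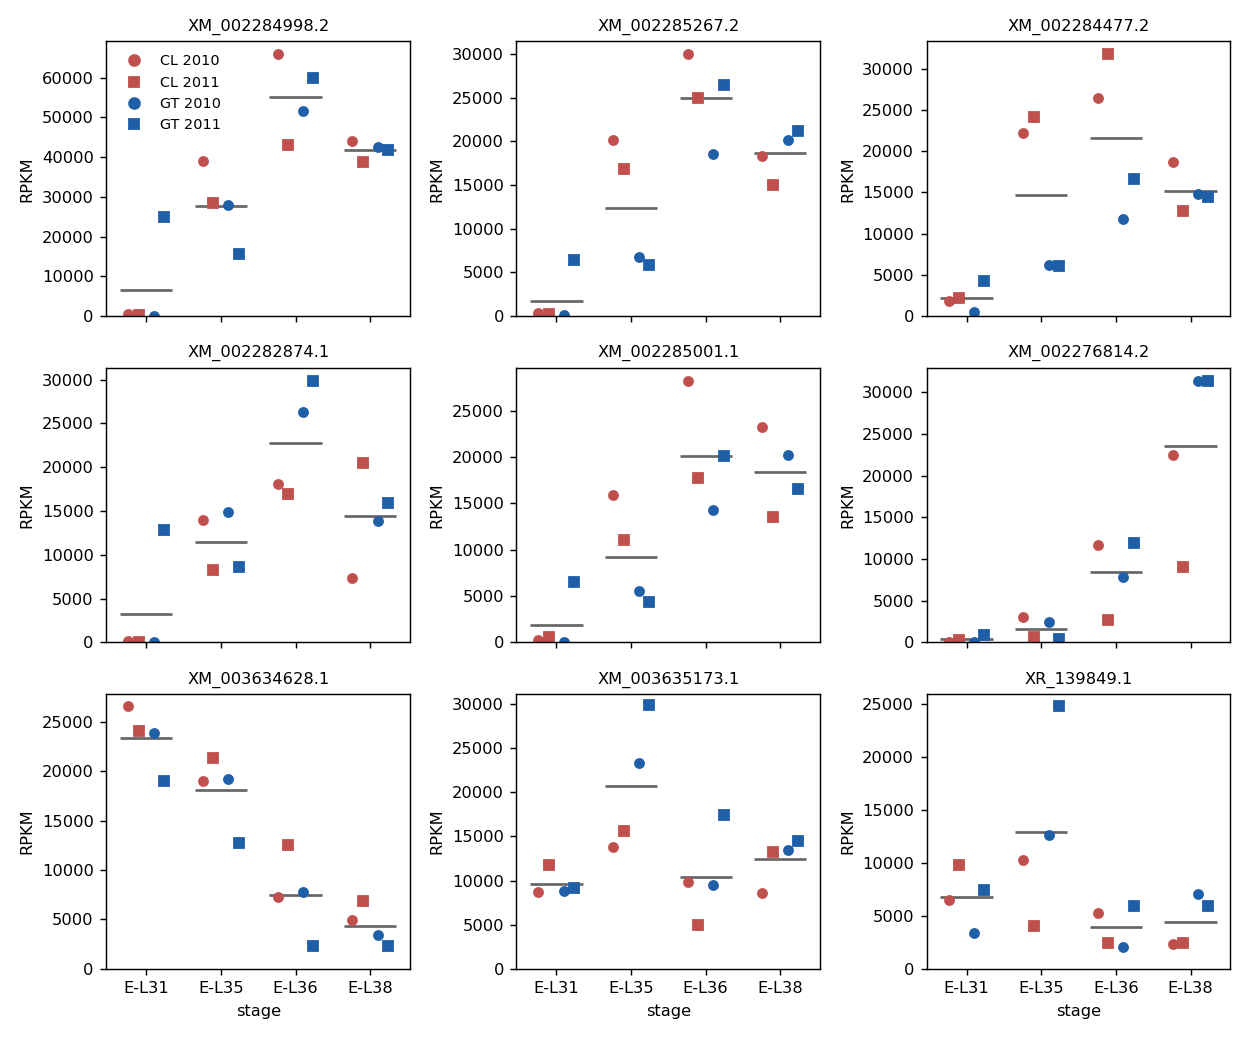
RPKM (y axis, from 0) of 9 members by stage; points are samples, coloured by region and shaped by vintage, and lines are the means of 4 samples. XM_002284998.2 is highest at E-L36, with GT 2011 at E-L31 apart from its stage, while XM_002276814.2 is highest at E-L38 and XM_003634628.1 at E-L31.

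**Figure D4:**
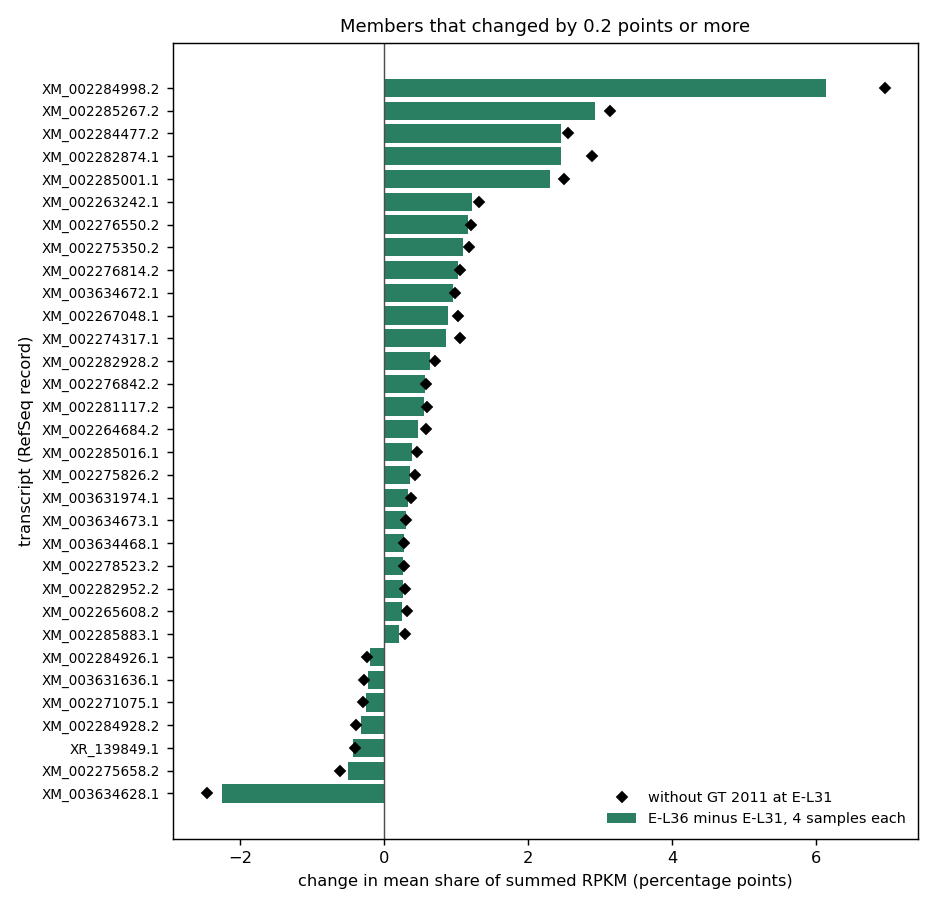
Change in the mean share of the summed RPKM from E-L31 to E-L36 (percentage points, x axis) for the members that changed by 0.2 points or more; bars use all 4 samples of each stage and diamonds leave out GT 2011 at E-L31. XM_002284998.2 gains 6.13 points (6.95 without that sample) and XM_003634628.1 changes by -2.25.

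Another 9 members gained at least 0.5 points from E-L31 to E-L36, and 7 of these had their highest mean at E-L38. XM_002276814.2 (762 nt, LOC100257132) had 78.9, 304, 76.3 and 931 RPKM at E-L31, then 3081, 597, 2408 and 397 (E-L35), 11677, 2645, 7787 and 11876 (E-L36) and 22412, 8990, 31358 and 31355 (E-L38). Its mean of 23529 ± 10570 RPKM (SD, n = 4) at E-L38 placed it next to XM_002284998.2 at that stage, with a gain of 1.95 points after E-L36, the largest of any member in that step. The CL 2011 sample was the lowest of the 4 at E-L36 and at E-L38. XM_003634672.1 (1449 nt, LOC100253748), separated from it by 1 gene in the RefSeq annotation, had 106, 422, 32.9 and 994 RPKM at E-L31, then 4093, 1967, 2031 and 870 (E-L35), 11600, 5014, 6993 and 8336 (E-L36) and 12515, 7135, 11960 and 10984 (E-L38). The same sample, CL 2011, was the lowest at E-L36 and E-L38, but only 0.0752% of the reads of this transcript were unique.

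XM_002275350.2 (1157 nt) had 60, 34.2, 26.8 and 2118 RPKM at E-L31, then 4829, 2342, 3050 and 1416 (E-L35), 8909, 4727, 11094 and 12330 (E-L36) and 8027, 10467, 15190 and 18634 (E-L38). GT lay above CL in both vintages at E-L36 and E-L38. XM_002282928.2 (1043 nt, 64.1% unique reads) had 76.6, 68.3, 67.4 and 2007 RPKM at E-L31, then 4416, 3325, 2068 and 1783 (E-L35), 4956, 3035, 6048 and 8358 (E-L36) and 4497, 8411, 9078 and 13302 (E-L38), and the same order of the regions held at both late stages. XM_002276842.2 (631 nt, 2.73% unique reads) had 348, 330, 41.7 and 680 RPKM at E-L31, then 2240, 798, 3116 and 312 (E-L35), 5395, 2266, 5209 and 6562 (E-L36) and 7197, 10736, 8840 and 10438 (E-L38). In this transcript the 2010 samples were above those of 2011 at E-L35 in both regions, and the regions overlapped at every stage.

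XM_002276550.2 (748 nt) had 1308, 1128, 981 and 2598 RPKM at E-L31, then 7413, 3720, 6198 and 2700 (E-L35), 13855, 9500, 9332 and 10475 (E-L36) and 12849, 10961, 11898 and 8162 (E-L38). E-L36 and E-L38 overlapped, and GT 2011 at E-L31 was 1.99-fold above the next sample of its stage. XM_002267048.1 (1158 nt) had 597, 800, 550 and 4963 RPKM at E-L31, then 7190, 5575, 4510 and 6227 (E-L35), 11137, 8126, 8314 and 7774 (E-L36) and 11295, 10108, 10414 and 7835 (E-L38). XM_002274317.1 (681 nt, LOC100242603) had 790, 793, 423 and 6389 RPKM at E-L31, then 7703, 3919, 5920 and 4266 (E-L35), 10444, 7454, 9217 and 8933 (E-L36) and 10787, 7826, 7157 and 7278 (E-L38). In GT 2011 at E-L31 they were 6.2-fold and 8.06-fold above the next sample of the stage, and the levels of both at E-L36 and E-L38 overlapped. XM_002281117.2 (1215 nt, LOC100264738) had 16.2, 13.9, 9.1 and 1086 RPKM at E-L31, then 4882, 4163, 1677 and 836 (E-L35), 5309, 5678, 2827 and 4885 (E-L36) and 2462, 3054, 2478 and 1883 (E-L38). Its 3 samples of E-L31 other than GT 2011 were under 20 RPKM, and both CL samples of E-L35 were above both GT samples.

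The largest loss of share was that of XM_003634628.1 (664 nt), the most abundant transcript of 3 samples of E-L31. Its RPKM was 26566, 24082, 23890 and 18997 at E-L31, then 19000, 21365, 19235 and 12768 (E-L35), 7312, 12514, 7742 and 2278 (E-L36) and 4941, 6855, 3408 and 2286 (E-L38). All samples of E-L36 were below all samples of E-L35, and its share went from 3.21% at E-L31 to 0.955% at E-L36. XM_002275658.2 had 5576, 2002, 6763 and 1424 RPKM at E-L31, then 392, 420, 1010 and 478 (E-L35), 175, 166, 387 and 529 (E-L36) and 41.1, 184, 95.3 and 88.8 (E-L38). Both 2010 samples of E-L31 stood well above both of 2011, and this member reached 1000 RPKM in 5 samples only. XM_002271075.1 had 4399, 3406, 4061 and 2633 RPKM at E-L31, then 2758, 3262, 2160 and 2847 (E-L35), 1819, 2819, 1332 and 1715 (E-L36) and 1872, 1211, 1338 and 1174 (E-L38). In each of the 8 pairs of the same stage and vintage it was lower in GT than in CL, which among the 60 members was also the case for XM_002263120.2. These pairs were counted for the members only, so how common this was among all transcripts cannot be told.

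XM_002284926.1 (LOC100252479) had 4141, 3182, 3735 and 2539 RPKM at E-L31, then 2897, 4461, 3283 and 3969 (E-L35), 1192, 2955, 1881 and 2257 (E-L36) and 742, 1618, 406 and 254 (E-L38). Its levels overlapped between E-L31 and E-L35, and at E-L38 both GT samples were below both CL samples. XM_002285883.1 (LOC100254126) was the steadiest of the 24 transcripts given by sample, with 3467, 3322, 3669 and 6145 RPKM at E-L31, then 5728, 3987, 5823 and 5834 (E-L35), 6536, 4998, 5722 and 7175 (E-L36) and 7584, 7002, 7993 and 6255 (E-L38). Its coefficient of variation over the 16 samples was 25.7%, as against 14.3% for XM_003632893.1, the lowest of the members, and 163% for XM_002275658.2, the highest.

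Both of the shortest transcripts among the 10 highest, XM_003635173.1 (351 nt) and XR_139849.1 (415 nt), were highest at E-L35. XM_003635173.1 had 8648, 11766, 8839 and 9146 RPKM at E-L31, then 13818, 15612, 23360 and 29859 (E-L35), 9884, 4907, 9541 and 17452 (E-L36) and 8558, 13209, 13420 and 14499 (E-L38), and it was the most abundant transcript of GT 2011 at E-L35. XR_139849.1 had 6511, 9820, 3366 and 7438 RPKM at E-L31, then 10302, 4046, 12608 and 24760 (E-L35), 5247, 2386, 2091 and 5948 (E-L36) and 2352, 2431, 7085 and 5922 (E-L38). Both were higher in GT than in CL at E-L35, in both vintages, with GT 2011 the highest of all 16 samples. The 2 libraries of a sample differed more for XR_139849.1 than for any other member in 3 of 8 pairs, with a largest log2 difference of 4.15 in GT 2010 at E-L35, so its levels at E-L35 and E-L38 are uncertain.

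Reads with several hits had been divided by the ratio of unique reads among the transcripts they hit, and 12 members had under 5% unique reads (20.0%, against 5.87% of all transcripts tested), while 40 had over 99%. Among the 12, some transcripts had similar unique shares in the libraries, and these were summed as sets; that they share reads was not tested. XM_002284998.2 and XM_003631974.1 (952 nt, 1.63% unique reads) formed one set by this likeness alone, their record numbers being far apart. The libraries of 1 sample differed by up to 5.57 on the log2 scale for XM_003631974.1 (CL 2010 at E-L38), so the split between the members of a set is uncertain. Summed, the set held 713, 343, 128 and 26351 RPKM at E-L31, then 47562, 30852, 30550 and 18581 (E-L35), 73065, 46847, 52352 and 60224 (E-L36) and 45498, 42383, 47479 and 45170 (E-L38). The course was that of XM_002284998.2 alone, which made up most of the sum.

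XM_003634628.1 and XM_003634629.1 summed to 25447 ± 4180 RPKM at E-L31, then 19912 ± 4018 (E-L35), 9433 ± 2957 (E-L36) and 5248 ± 2291 (E-L38) as means of 4 samples with the SD, so the sum too was lower after E-L35. XM_003634468.1, XM_003634469.1 and XM_003634472.1 summed to 10100 ± 1533, 13051 ± 1641, 13455 ± 3120 and 12028 ± 3262 RPKM, which overlapped at all stages. Taken singly, XM_003634468.1 had 5966, 2164, 2770 and 3814 RPKM at E-L31, then 5924, 5393, 6793 and 4876 (E-L35), 11359, 6207, 4221 and 2832 (E-L36) and 6633, 4020, 8800 and 5233 (E-L38). XM_003634469.1 had 3200, 4898, 3658 and 5576 RPKM at E-L31, then 5344, 5688, 3545 and 4228 (E-L35), 2944, 4941, 3621 and 4917 (E-L36) and 5475, 2695, 2834 and 2699 (E-L38), and its only E-L38 sample above 3000 RPKM was CL 2010. The coefficient of variation over the samples was 43.0% and 26.9% for these 2 and 21.6% for the sum of the set. XM_003634672.1 and XM_003634673.1 summed to 457 ± 455, 2742 ± 1795, 10475 ± 4465 and 13024 ± 3130 RPKM at the 4 stages, with E-L36 and E-L38 overlapping. The members' share of the summed RPKM from unique reads alone was lower than from all reads, at 37.1% in place of 42.3% at E-L36.

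The other 36 members had means between 1001 and 2906 RPKM. They held 5.88% ± 1.43 (SD, n = 4) of the summed RPKM at E-L31, then 7.73% ± 0.664 (E-L35), 8.45% ± 0.226 (E-L36) and 7.4% ± 0.308 (E-L38), a flatter course than that of the 24 transcripts given by sample. That follows in part from the choice of the 24, which took in every member whose share moved by 0.5 points or more. Between E-L31 and E-L36, 23 of the 36 gained and 13 lost, by -0.323 points (XM_002284928.2) at one end and 0.462 points at the other, a range bounded by the same choice. The highest mean fell on E-L31 for 8 of them, on E-L35 for 10, and on E-L36 and E-L38 for 9 each.

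The members were also short. Their median length was 982 nt as against 1425 nt for all transcripts, and 51.7% of them were under 1000 nt as against 26.1% of all. Division by length raises the RPKM of a short transcript for a given count, and its part in the choice of members was not tested. Over the 16 samples, the transcripts whose log2(RPKM + 1) was most like that of XM_002284998.2 were XM_002282284.1 (Pearson's r = 0.991), the members XM_002285267.2 (0.989), XM_002263242.1 and XM_002282874.1 (0.988 each), and XM_002276041.2 (0.988). These points share the low samples of E-L31, and the values describe the courses only.

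Stages were then compared transcript by transcript on the counts, with edgeR's quasi-likelihood test over all 19026 transcripts tested, and a transcript was called where the Benjamini-Hochberg adjusted p did not exceed 0.05 and the log2 ratio was 1 or more in size. A member very high at 1 stage could enter the list through that stage alone, so the counts describe the members and support nothing about them. For E-L36 over E-L31, 33 members were called higher (6.13% of all transcripts tested were) and 3 lower (13.5% of all). The median log2 ratio of the members was 1.43 and that of all transcripts 0.00. Without GT 2011 at E-L31, 38 were called higher and 4 lower, where 9.58% and 15.0% of all transcripts were, and the 36 called with all samples were among them. In RPKM, 24 members had all samples of E-L36 above all of E-L31 (2.11% of all tested) and 6 had them below (33.0% of all). Without GT 2011 at E-L31 these were 34 (6.22% of all) and 11 (44.1% of all).

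The 5 called members with the largest log2 ratios of E-L36 over E-L31 were XM_002278523.2 at 6.43 ± 1.18 (SE, adjusted p = 0.00311), XM_002281117.2 at 6.18 ± 1.07 (adjusted p = 0.00252), XM_003634673.1 at 5.85 ± 0.75 (adjusted p = 0.00089), XM_002275350.2 at 5.85 ± 1.05 (adjusted p = 0.00296) and XM_002276814.2 at 5.30 ± 1.09 (adjusted p = 0.00505), all by edgeR. XM_002278523.2 had 5.73, 9.22, 6.98 and 335 RPKM at E-L31 and 4191, 796, 1813 and 1792 at E-L36, and like the other 4 it was called without GT 2011 too. Without GT 2011 at E-L31 the ratios were larger, at 8.84, 9.23, 6.64, 8.61 and 6.76 in the same order. XM_003634673.1 had only 0.0775% unique reads (345 in all), and on unique reads its ratio was 4.77. Lower were XM_002275658.2 at -3.21 ± 0.58 (edgeR adjusted p = 0.00298), XM_002284928.2 at -1.21 ± 0.24 (adjusted p = 0.00417) and XM_003634628.1 at -1.21 ± 0.36 (adjusted p = 0.0253). XM_002281117.2, XM_002275350.2, XM_002276814.2, XM_002275658.2 and XM_003634628.1 had been named above for their change in share over this same step. Their adjusted p-values therefore describe them and support nothing further. XM_002284928.2 had 4023, 3299, 3706 and 1880 RPKM at E-L31 and 810, 1310, 798 and 861 at E-L36, with no overlap, and XM_003634628.1 was at -2.75 on unique reads. On the RPKM scale, where limma moved the log2 ratio of the median transcript by -0.41, 9 members changed the sign of this ratio, all with ratios of 0.03 to 0.64 on the TMM scale and none called.

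Much of the change was in place at E-L35. For E-L35 over E-L31, 15 members were called higher (1.04% of all) and 1 lower (3.11% of all), at adjusted p from 0.0327 up. The largest ratios were those of XM_002281117.2 at 4.89 ± 1.01 (edgeR adjusted p = 0.0332), XM_003631974.1 at 4.30 ± 1.08 (adjusted p = 0.0446), XM_002275350.2 at 3.85 ± 0.96 (adjusted p = 0.0441), XM_002285267.2 at 3.65 ± 0.89 (adjusted p = 0.042) and XM_002282928.2 at 3.49 ± 0.78 (adjusted p = 0.0368). XM_002275658.2 was lower, at -2.62 ± 0.57 (adjusted p = 0.0347). These calls lay close to the limit. XM_002281117.2, XM_002275350.2, XM_002285267.2, XM_002282928.2 and XM_002275658.2 had been named above for their change in share from E-L31 to E-L36. That change rests on the same samples of E-L31, so these adjusted p-values too describe them and support nothing further. The same holds for XM_002267048.1 and XM_002263242.1 below. Without GT 2011 at E-L31 the 5 higher ratios were 7.94, 7.18, 6.61, 6.26 and 5.56 in the same order. Without that sample 35 members were called higher and 1 lower (5.61% and 7.96% of all), whereas without any 1 of the 2 CL samples of E-L31, of the 4 samples of E-L35 or of the 2 GT samples of E-L38, no member was called. In those fits at most 16 of all 19026 transcripts were called higher and 118 lower, so few calls were made anywhere. With the vintage as a block, XM_003631974.1 was at 4.29 (adjusted p = 0.0544, 0.000437 to 0.141 over all alternatives) and XM_002275350.2 at 3.83 (adjusted p = 0.0553, 4.28e-05 to 0.141 over all alternatives), both no longer called, as were XM_003635173.1 at 1.32 (adjusted p = 0.053, 0.000929 to 0.192 over all alternatives), XM_002267048.1 at 2.31 (adjusted p = 0.0506, 0.000155 to 0.136 over all alternatives) and XM_002263242.1 at 3.49 (adjusted p = 0.0531, 5.73e-05 to 0.141 over all alternatives).

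Between E-L35 and E-L36 the top-10 share grew further, but no member was called by edgeR (0.0683% of all transcripts were called higher and 0.368% lower), with 15 members at an unadjusted p under 0.05, where 20.9% of all transcripts were. DESeq2 called 7 higher (0.899% of all) and 1 lower (3.44% of all), and limma on log2(RPKM + 1) called 1 higher (0.105% of all). When either of the GT samples of E-L31 was left out, which takes their difference out of the shared estimate of the spread, 15 members were called higher by edgeR (0.689% of all higher and 2.31% lower when it was GT 2011). Those fits hold 1 sample of GT at E-L31, so their calls describe the fits and support nothing particular to the members. In RPKM, 8 members had all samples of E-L36 above all of E-L35 (0.731% of all) and 4 below (14.8% of all). By share, XM_002284998.2 gained 3.35 points in this step, XM_002285267.2 1.55, XM_002282874.1 1.39 and XM_002285001.1 1.35, while XM_003634628.1 and XM_003635173.1 moved by -1.42 points each and XR_139849.1 by -1.22.

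After E-L36 the members' mean share changed by -2.05 points net, with 21 members moving by 5.36 points together and 39 by -7.41. By region, the mean share went from 43.1 to 38.1% in CL and from 41.6 to 42.5% in GT (n = 2 each). In GT 2010 it rose from 38.5 to 43.0%, while it fell in GT 2011 and in both CL vintages. XM_002276814.2 gained most, and XM_002284998.2 moved by -1.62 points, XM_002282874.1 by -1.03 and XM_002284477.2 by -0.812. For E-L38 over E-L36, edgeR called no member higher (0.0894% of all) and 3 lower (0.636% of all). XM_003633501.1 was at -1.93 ± 0.37 (adjusted p = 0.0435), with 921, 1734, 1034 and 2003 RPKM at E-L36 and 470, 1105, 229 and 216 at E-L38, the lowest value at E-L36 being below the CL 2011 value at E-L38. XM_002284926.1 was at -1.89 ± 0.35 (adjusted p = 0.0363), and its CL 2011 value at E-L38 likewise overlapped E-L36. XM_002266322.2 was at -1.07 ± 0.18 (adjusted p = 0.0277), with 1105, 1574, 1328 and 966 RPKM at E-L36 and 889, 706, 567 and 481 at E-L38, and no overlap. No member was called in this step when CL 2010 at E-L38, either GT sample of E-L38, any sample of E-L35 or either 2011 sample of E-L36 was left out, nor by limma on log2(RPKM + 1), and 5 were called lower when either GT sample of E-L31 was left out (0.321% of all higher and 1.56% lower when it was GT 2011). In the fits with no member called, 2 to 62 of all transcripts were called lower. DESeq2 called 6 members lower (2.48% of all).

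The regions were compared next. By share of the summed RPKM, CL was above GT at E-L35 in both vintages, 35.2% ± 3.99 (SD, n = 2) against 28.9% ± 1.46, and GT above CL at E-L38, 42.5% ± 0.667 against 38.1% ± 2.43. At E-L31 and E-L36 the regions overlapped, with 15.3% ± 1.07 in CL against 20.2% ± 8.67 in GT and 43.1% ± 6.29 against 41.6% ± 4.35. GT minus CL was -6.29 points at E-L35, made mainly by XM_002284477.2 (-2.2 points), XM_002285267.2 (-1.56), XM_002284998.2 (-1.47) and XM_002285001.1 (-1.09) and offset by XM_003635173.1 (1.64 points) and XR_139849.1 (1.58). At E-L38 the 4.47 points by which GT was ahead came from XM_002276814.2 (2.01 points), XM_002275350.2 (0.976), XM_002282928.2 (0.601) and XR_139849.1 (0.525). In RPKM, 20 members at E-L35 had both GT samples below both CL samples (13.4% of all transcripts tested) and 10 above (42.1% of all). At E-L38 21 were below (26.4% of all) and 11 above (15.9% of all), at E-L36 10 below (14.7%) and 14 above (21.4%), and at E-L31 1 below (21.8%) and 6 above (14.7%).

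With all samples and the stages averaged, edgeR called no member between GT and CL (0.0158% of all were higher and 0.0631% lower), with 6 members at an unadjusted p under 0.05 (19.3% of all) and none called by DESeq2. The member nearest to the limit was XM_002263120.2 at -0.68 ± 0.19 (SE, edgeR adjusted p = 0.123), lower in GT in 8 of 8 pairs, counted for the members only. At single stages edgeR called no member either, with 19, 8, 5 and 3 members at an unadjusted p under 0.05 from E-L31 to E-L38, where 13.9, 11.4, 10.2 and 7.82% of all transcripts were. By edgeR 0.0, 0.0, 0.0 and 0.0% of all transcripts were called higher and 0.0, 0.0, 0.021 and 0.00526% lower. DESeq2 called 12 members higher in GT at E-L31 (1.01% of all) and 1 lower at E-L38 (0.463% of all), and none at E-L35 or E-L36. In edgeR, 20 members were called higher in GT at E-L31 when GT 2010 was left out (2.73% of all) and none when GT 2011 was left out. At E-L35, XM_002284477.2 was at -2.15 ± 0.81 (edgeR adjusted p = 0.374), with no overlap of its CL and GT samples. Without GT 2011 at E-L31, this transcript was called lower in GT with the stages averaged, at -1.35 (edgeR adjusted p = 0.0476, 0.0476 to 0.513 over all alternatives), where 0.00526% of all transcripts were called higher and 0.0315% lower. No member was called at E-L35 without that sample, where 0.0105% of all were higher and 0.0105% lower. The difference between the regions in the ratio of E-L36 over E-L31 called no member in edgeR (0.0% of all in both directions), with 13 members at an unadjusted p under 0.05 (8.65% of all), and DESeq2 called 1 lower (0.457% of all).

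Over all stages, the members' share was 33.4% ± 12.4 (SD, n = 8) in 2010 and 32.9% ± 9.8 in 2011, and the top-10 share 19.7% ± 7.03 and 19.7% ± 5.45. For 2011 over 2010, edgeR called no member (0.0% of all in both directions), with 3 at an unadjusted p under 0.05 (7.09% of all), and DESeq2 called none. Within a group of stage and region, the median absolute log2 ratio between the vintages over the members was 0.21 to 0.55, except for GT at E-L31, where it was 1.45 and 34 members were at 2-fold or more in 2011. GT at E-L38 was the closest pair, with no member at 2-fold in either direction. These ratios between vintages were counted for the members only, with no count over all transcripts beside them.

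**Figure D5:**
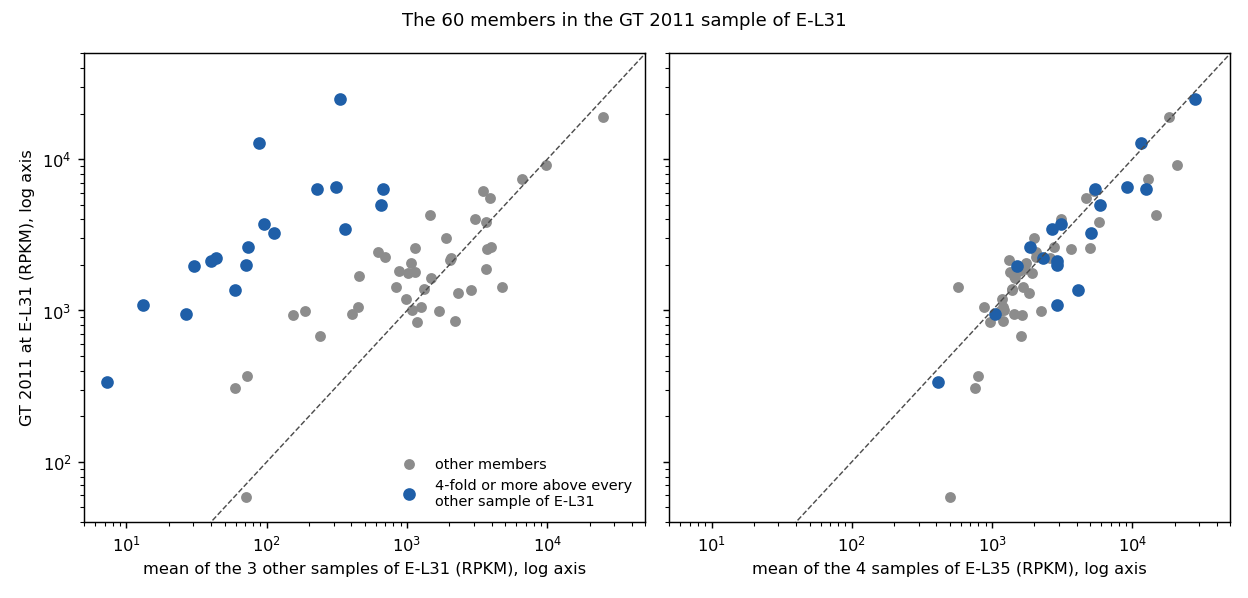
RPKM of the 60 members in the GT 2011 sample of E-L31 (y axis, log scale) against the mean of the 3 other samples of E-L31 (left) and against the mean of the 4 samples of E-L35 (right), both on log axes, with the line of equal levels; blue points are the 18 members at 4-fold or more above every other sample of E-L31. On the left the blue points lie above the line, while on the right they lie on both sides of it, 17 of the 18 within the range of the samples of E-L35.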

How the data were processed

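Strand-specific RNA-seq libraries of berries without seeds were trimmed and mapped by the authors to RefSeq mRNA records of Vitis vinifera with CLC Genomics Workbench, and a read with several hits was shared out by the unique reads of the transcripts it hit. The deposited tables give, per library and transcript, the authors' counts of total and of uniquely mapped reads, their RPKM values (scaled for transcript length and mapped reads) and the transcript length in nt. No column of the authors' own comparisons was used.

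Here RPKM was averaged and counts were summed over the libraries of a sample. Shares are percentages of the summed RPKM or counts of a sample. A transcript needed 10 counts or more in 2 samples to enter edgeR 4.0.16 (R 4.3.3) with TMM scaling (factors 0.751 to 1.29) and quasi-likelihood tests over 8 groups of stage and region, with p adjusted over all 19026 transcripts tested; the fit was first tested on simulated data. Calls needed an adjusted p not above 0.05 and a log2 ratio of 1 or more in size. Alternatives used DESeq2 1.42.0, limma 3.58.1 on log2(RPKM + 1) and log2(RPKM + 0.1), a vintage block, scaling without the members, no count filter, unique reads, no minimum ratio, 24 libraries as values, other thresholds and each sample left out. Python 3.11.15 with numpy 2.4.6 and pandas 2.3.3 made the other tables. Precision is limited by 2 samples a group, and totals ran from 3798921 to 26627006 counts a sample.

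The vintage pairs samples, since samples of a year share a season. Deviations of same-year samples from their group means correlated at -0.376 to 0.337 over 28 pairs of groups (median 0.00847), with 7 over 0.1. Members and lists were chosen with earlier results of these data known. Values are given in every sample for transcripts among the 10 highest of a stage mean or with a share that moved by 0.5 points or more from E-L31 to E-L36, and by group for up to 5 called members in each direction of a comparison and for the 3 transcripts on each side of the limit. Symbols came from RefSeq's gene table, which matched 22 members and 14054 transcripts in all. Marker lists and sequence features that need product names or sequences were not used here.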

Additional observations from a re-analysis of the deposited data

Results flagged for a closer look

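Among 108 sets of 4 samples (shares of the members and the 24 transcripts given by sample, each at 1 stage), 18 held a sample whose gap to the nearest other exceeded Dixon's critical value for 4 samples as a part of the range. Chance flags about 1 set in 20, and sets of different transcripts in the same samples are not independent. Of the 18, 14 fell on E-L31, 2 on E-L35 and 1 each on E-L36 and E-L38, and 13 were on GT 2011 at E-L31.

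In GT 2011 at E-L31 the members' share was 26.3% of the summed RPKM and 19.2% of the counts, both above the rest of the stage. The transcripts that stood above the other samples of E-L31 there were XM_002284998.2 (24994 RPKM), XM_002282874.1 (12795 RPKM), XM_002285001.1 (6512 RPKM), XM_002274317.1 (6389 RPKM), XM_002285267.2 (6357 RPKM), XM_002285883.1 (6145 RPKM) and XM_002267048.1 (4963 RPKM). At lower levels the same was seen for XM_002263242.1 (3241 RPKM), XM_002275350.2 (2118 RPKM), XM_002282928.2 (2007 RPKM) and XM_002281117.2 (1086 RPKM). Of these 11 transcripts, all but XM_002285883.1 gained 0.5 points of share or more between E-L31 and E-L36. Only the 24 transcripts given by sample were screened, and 15 of those had gained as much, so the list itself favoured such transcripts.

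Elsewhere, XM_003635173.1 stood high in CL 2011 at E-L31 (11766 RPKM) and XM_002275658.2 in GT 2010 at E-L35 (1010 RPKM). XM_002285883.1 stood low in CL 2011 at E-L35 (3987 RPKM). XM_002267048.1 stood high in CL 2010 at E-L36 (11137 RPKM) and XM_003634469.1 in CL 2010 at E-L38 (5475 RPKM), the latter with 0.807% unique reads.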

How the results depend on the processing

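No call changed its direction under any alternative run. DESeq2 called 31 members for E-L35 over E-L31, 8 for E-L36 over E-L35, 6 for E-L38 over E-L36, 12 between the regions at E-L31, 1 at E-L38 and 1 for the difference of E-L36 over E-L31 between the regions. DESeq2 also called more of all transcripts, 507 higher and 1161 lower for E-L35 over E-L31 against 198 and 592. With the 24 libraries as values, which treats libraries of 1 sample as replicates, 33, 10 and 6 members were called in the 3 steps, 2 between the regions with stages averaged, 6 at E-L31, 4 at E-L35 and 2 at E-L38. Of all 19026 transcripts, 630 were called higher and 1480 lower, 267 and 753, and 150 and 576 in these steps. Between the regions, 194 and 249, 73 and 121, 370 and 298, and 52 and 276 of all were called, in the same order. limma, with 1 or 0.1 added to RPKM, called 1 for E-L36 over E-L35 and 0 for E-L38 over E-L36. With 1 added, it called 20 of all transcripts higher and 340 lower for E-L36 over E-L35, and 53 and 47 for E-L38 over E-L36. With 0.1 added, these were 28 and 674, and 38 and 54. Leaving out 1 sample gave 0 to 36 calls for E-L35 over E-L31, 0 to 15 for E-L36 over E-L35, 0 to 5 for E-L38 over E-L36, 29 to 42 for E-L36 over E-L31, 0 to 8 between the regions with stages averaged, 0 to 20 at E-L31 and 0 to 16 for the difference between the regions, the highest of the last 3 without GT 2010 at E-L31. Each fit with 1 sample left out rests on 1 sample in the group concerned. Its counts therefore describe the fit and support nothing particular to the members. The number of all transcripts called moved between these fits as well, and the cause of these differences was not tested.

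The vintage block, the paired analysis, called 12 members for E-L35 over E-L31 (11 of the 16 called without it), 37 for E-L36 over E-L31 and 3 for E-L38 over E-L36, and changed no other call. Of all transcripts it called 241 higher and 601 lower, 1134 and 2561, and 19 and 108 in the same order. For 2011 over 2010 the fit holds the vintage already.

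The members' share by stage moved most with the limit on the mean. At 500 RPKM (129 transcripts) it was 24.4, 38.3, 48.5 and 46.1% from E-L31 to E-L38, and at 2000 RPKM (31 transcripts) 27.1, 37.0 and 36.0% from E-L35 on. Unique reads gave 27.4, 37.1 and 35.5% of the summed RPKM from E-L35 on, 29.0 and 27.0% of the counts at the last stages, and a top-10 share of 9.09% at E-L31. Leaving out 1 sample gave member shares of 14.9 to 19.0, 30.1 to 33.5, 40.6 to 43.6 and 39.4 to 41.6% from E-L31 to E-L38. The lowest count of a member in a sample was 20, and 2 samples a group limit every test. Leaving out the 22 transcripts of CL 2011, chosen after seeing the data, gave 18.0% for the members and 10.8% for the top 10 at E-L31.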

Other observations

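The 22 transcripts that set CL 2011 at E-L31 apart were led by XM_003634658.1 (9841 RPKM), XM_002282756.1 (7231 RPKM), XM_002278310.2 (5793 RPKM), XM_002278165.1 (5591 RPKM), XM_002270184.2 (5156 RPKM) and XM_002280930.2 (3902 RPKM). GT 2011, the other E-L31 sample of that vintage, held the same 22 at lower levels, with a ratio of CL over GT between 5.03 and 34.8 (median 8.73). None of them reached a mean of 1000 RPKM over the 16 samples. XM_003634658.1 also lost more share between E-L31 and E-L36 than any other transcript that is no member, by -0.373 points. They were picked after their values were seen, no product name was used for them, and no cause was tested.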
